A study of Mus musculus with 15 samples.

Results

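A border between H3K27me3 and H3K36me2 was defined here as a gap of 0 to 5000 bp between the end of a peak of one mark and the start of the next peak of the other, with no other peak of either mark between. Peaks were merged from the lists of both replicates, kept only where each replicate touched them, and restricted to the 19 autosomes. This gave 278 borders among 19910 gaps of the same size limit, the others being 9763 gaps between H3K27me3 peaks and 9869 gaps between H3K36me2 peaks. H3K27me3 lay on the left, at the lower coordinate, in 138 borders and H3K36me2 in 140. The borders were chosen by the positions of H3K27me3 and H3K36me2 peaks, so their number, gap length and flanking peaks are given as a description, while the 4 active sets (H3K4me3, H3K9ac, H3K27ac and ATAC-seq) and the genes were not used to choose them.

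The study used EL4 cells, a mouse T lymphocyte lymphoma line of strain C57BL/6N, grown without treatment in these libraries. Chromatin immunoprecipitation with sequencing (ChIP-seq) of 5 histone marks and ATAC-seq, which reads accessible DNA with a transposase, gave 2 replicates each. All 12 lists used come from this single line, and the methods call replicates technical for ATAC-seq and peak merging, so p-values measure only the spread between these libraries, which may be technical. The lists hold positions of called peaks without any read count, so the sequencing depth behind a peak is unknown.

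H3K27me3 is laid down by Polycomb repressive complex PRC2 (Ezh1 or Ezh2 with Eed and Suz12) and covers silent genes and regions in broad domains. H3K36me2 is laid down by enzymes such as Nsd1, Nsd2 and Ash1l, spreads over gene bodies and between genes, and methylation of lysine 36 on a histone tail is known to hinder PRC2 on that tail. H3K4me3, H3K9ac and H3K27ac mark active promoters, H3K27ac also marks active enhancers, and ATAC-seq peaks mark open DNA.

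Many borders lay at a gene start, and 5 such promoters are printed to show the DNA between the domains. They belong to the 5 protein-coding genes with the longest flanking H3K27me3 peak among those that start in a border touched by all 4 active sets. Each sequence runs from 250 bases before the start to 50 bases after it, 5′ to 3′ on the strand of the gene, from RefSeq on GRCm38.p6, with CG dinucleotides in capitals. The Phc1 window is chr6:122340178-122340477 on the minus strand and the Pex26 window is chr6:121183417-121183716 on the plus strand. The Lancl1 window is chr1:67038785-67039084 (minus), that of Trim68 is chr7:102687278-102687577 (minus) and that of Sfxn1 is chr13:54071595-54071894 (plus).
Phc1: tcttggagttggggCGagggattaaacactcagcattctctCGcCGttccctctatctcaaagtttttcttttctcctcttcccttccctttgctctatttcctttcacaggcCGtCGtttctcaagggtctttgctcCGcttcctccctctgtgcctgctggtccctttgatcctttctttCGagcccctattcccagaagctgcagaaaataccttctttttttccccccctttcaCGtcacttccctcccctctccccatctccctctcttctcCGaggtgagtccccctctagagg
Pex26: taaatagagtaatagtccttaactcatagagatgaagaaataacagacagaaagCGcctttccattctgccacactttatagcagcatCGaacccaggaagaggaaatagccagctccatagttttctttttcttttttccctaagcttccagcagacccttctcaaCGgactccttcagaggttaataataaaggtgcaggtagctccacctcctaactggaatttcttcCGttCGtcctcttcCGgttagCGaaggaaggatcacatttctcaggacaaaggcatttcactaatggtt
Lancl1: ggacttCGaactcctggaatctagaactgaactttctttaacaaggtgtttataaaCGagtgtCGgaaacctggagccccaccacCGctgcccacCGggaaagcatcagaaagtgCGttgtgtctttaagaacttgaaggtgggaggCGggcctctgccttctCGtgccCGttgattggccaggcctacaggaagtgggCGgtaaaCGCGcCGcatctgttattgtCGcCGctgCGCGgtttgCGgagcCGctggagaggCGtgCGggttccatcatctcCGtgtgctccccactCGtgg
Trim68: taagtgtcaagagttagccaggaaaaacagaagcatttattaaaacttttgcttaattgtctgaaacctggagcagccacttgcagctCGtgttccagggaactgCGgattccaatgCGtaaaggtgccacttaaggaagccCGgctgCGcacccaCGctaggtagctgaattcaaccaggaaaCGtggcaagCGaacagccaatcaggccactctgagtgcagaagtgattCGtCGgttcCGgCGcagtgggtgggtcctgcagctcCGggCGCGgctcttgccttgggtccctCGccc
Sfxn1: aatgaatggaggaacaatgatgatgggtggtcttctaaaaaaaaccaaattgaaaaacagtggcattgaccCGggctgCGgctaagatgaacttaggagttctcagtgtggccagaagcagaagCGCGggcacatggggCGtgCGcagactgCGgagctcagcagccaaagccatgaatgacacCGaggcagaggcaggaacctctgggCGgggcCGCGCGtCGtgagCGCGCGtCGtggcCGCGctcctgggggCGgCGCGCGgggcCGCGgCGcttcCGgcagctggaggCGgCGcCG

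The printed promoters held 9 CG in Phc1, 7 in Pex26, 23 in Lancl1, 16 in Trim68 and 30 in Sfxn1. Over all 76 promoter windows whose start lay in a border the median was 21 CG (quartiles 14 and 26.2) and 59.7% G or C. The 1054 windows with a start in a gap between H3K36me2 peaks had nearly the same composition, with 20 CG and 59.7% G or C. The 133 windows in gaps between H3K27me3 peaks had a median of 3 CG and 47.3% G or C, and all 31396 autosomal windows had 7 CG and 53% G or C. Starts in borders were thus CG-rich like those between H3K36me2 peaks. The 71 border windows under an H3K4me3 peak had a median of 21 CG, and the 5 without one had 1 CG.

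4 short motifs were searched on both strands of the 300-base windows. GGGCGG, the core of the GC box, was found in 45 of 76 border windows (59.2%), against 59.6% of windows between H3K36me2 peaks and 35.98% of all windows. TATAAA was found in 7.89% of border windows and 13.6% of all windows. CCAAT was found in 43.4% and 37.3%. CCGGAAG, a core bound by ETS factors, was found in 18.4% of border windows, 23.6% of those between H3K36me2 peaks and 9.004% of all windows. Among all 10312 windows under an H3K4me3 peak GGGCGG was found in 66.6%, TATAAA in 6.08%, CCAAT in 37.6% and CCGGAAG in 21.0%, with a median of 22 CG, so GGGCGG and CCGGAAG were no more frequent in border windows than at marked promoters in general. GGGCGG lay in the windows of Lancl1 and Sfxn1, and no motif of the 4 lay in that of Phc1.

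Borders were rare among neighbouring peaks. Of 4205 adjacent pairs of opposite marks on the autosomes, 278 (6.61%) lay within 5000 bp, and the median distance of all pairs was 34.4 kb. Adjacent H3K27me3 peaks were within the limit in 46.2% of 21114 pairs (median distance 6.00 kb), and adjacent H3K36me2 peaks in 48.2% of 20457 pairs (median 5.40 kb). A border lay at 275 of 23261 H3K27me3 peaks (1.18%) and at 268 of 22608 H3K36me2 peaks (1.19%). 3 H3K27me3 peaks and 10 H3K36me2 peaks had a border at each end. Direct overlap, which is no border, concerned 68 H3K27me3 and 72 H3K36me2 peaks. Just inside the limit, at 4001 to 4801 bp, 24 of 51 borders (47.1%) held an H3K4me3 peak, and just outside, at 5001 to 5801 bp, 31 of 67 pairs (46.3%) did.

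Border gaps were longer than gaps within a mark. Their median was 2601 bp (quartiles 1601 and 3601 bp), against 1001 bp in both same-mark classes (quartiles 801 and 2601 bp for H3K27me3, 801 and 2401 bp for H3K36me2). Lists of replicate 1 alone gave 437 borders with a median of 3001 bp and lists of replicate 2 alone 454 borders with a median of 2801 bp. More than 2000 bp separated the peaks in 64.4% of borders, 32.9% of H3K27me3 gaps and 31.1% of H3K36me2 gaps. Gaps of 801 to 1201 bp made up 12.6% of borders but 44.8% and 44.6% of the same-mark gaps. Broad intervals lie on 200 bp bins, and within a single list no intervals of one mark were closer than 801 bp, a minimum that borders do not have and whose part in the difference was not tested. Below 801 bp lay 25 borders (8.99%), 3 of them with the marks in adjoining bins, which the lists show as a gap of 1 bp. Merged same-mark gaps were below 801 bp somewhat more often, in 12.6% for H3K27me3 and 13.8% for H3K36me2. Such short gaps were thus not particular to borders.

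**Figure D1:**
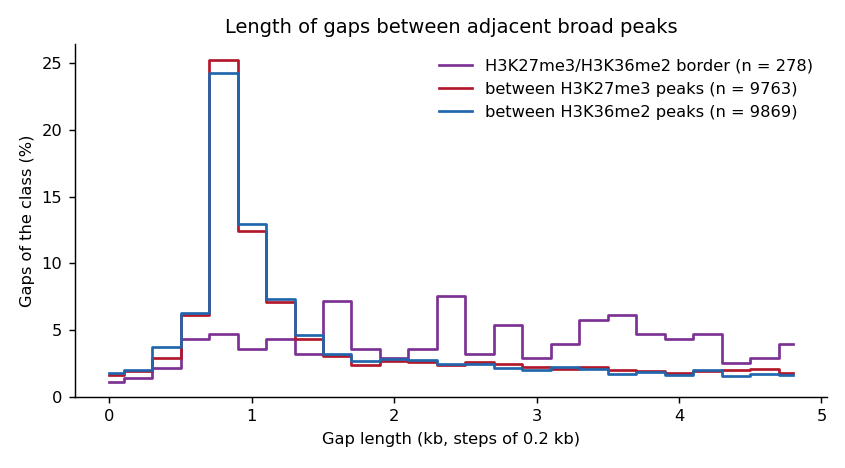
Share of gaps in each class (y axis, percent) by gap length (x axis, kb, in the 0.2 kb steps of the lists), for borders and for gaps between peaks of one mark. Same-mark gaps pile up at 801 to 1201 bp, while borders are spread out with a median of 2601 bp.

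The edges of the broad peaks were less exact than their bins. The H3K27me3 edge facing the gap differed between replicates by a median of 1200 bp (quartiles 400 and 3000 bp), and the H3K36me2 edge by 1400 bp (quartiles 400 and 2800 bp). Edges were within 1000 bp of each other in 130 borders (46.8%) for H3K27me3 and in 122 (43.9%) for H3K36me2. A border built from replicate 1 alone touched 166 of the 278 (59.7%), one from replicate 2 alone touched 189 (68.0%), both touched 107 (38.5%) and neither touched 30. In 9 borders an interval of a single replicate of either mark lay in the gap. The flanking H3K27me3 peaks had a median width of 11.5 kb (range 2.80 to 89.6 kb), against 8.999 kb for all H3K27me3 peaks. The H3K36me2 flanks had a median of 13.2 kb (range 0.399 to 171 kb), against 9.60 kb for all.

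Active marks and open DNA were found in many borders and rarely between H3K27me3 peaks. An H3K4me3 peak touched 122 of 278 borders (43.9%, exact 95% binomial interval 38.0 to 49.9%), where 9.35% of all 19910 gaps were touched. H3K9ac touched 108 (38.8%, interval 33.1 to 44.9%) against 8.85% of all gaps, and H3K27ac 106 (38.1%, interval 32.4 to 44.1%) against 9.88%. ATAC-seq peaks touched 96 borders (34.5%, interval 29.0 to 40.4%) against 7.81% of all gaps. These intervals, by the Clopper-Pearson method, cover counting error over gaps only. By single replicates H3K4me3 touched 122 borders in replicate 1 and 120 in replicate 2 (120 in each), H3K9ac 109 and 108 (107 in each) and H3K27ac 107 and 106 (106 in each). ATAC-seq touched 100 borders in either replicate taken singly, but 92 of these were the same, with 8 found in replicate 1 only and 8 in replicate 2 only.

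Gaps between H3K27me3 peaks were almost empty of the active sets. H3K4me3 touched 40 of them (0.410%), H3K9ac and H3K27ac 16 each (0.164%) and ATAC-seq 24 (0.246%). Gaps between H3K36me2 peaks lay in the middle, with H3K4me3 in 1699 (17.2%), H3K9ac in 1639 (16.6%), H3K27ac in 1845 (18.7%) and ATAC-seq in 1435 (14.5%). Borders exceeded the H3K36me2 gaps by 26.7 percentage points in H3K4me3, 22.2 in H3K9ac, 19.4 in H3K27ac and 19.99 in ATAC-seq, and they exceeded the H3K27me3 gaps by 43.5, 38.7, 38.0 and 34.3 points.

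To set these differences against replicate error, all classes of gap were rebuilt from the lists of replicate 1 alone and of replicate 2 alone. H3K4me3 then touched 31.4 and 34.1% of borders (32.7 ± 1.97%, SD, n = 2) against 11.2 and 11.1% of H3K36me2 gaps and 0.229 and 0.322% of H3K27me3 gaps. H3K9ac touched 29.1 and 32.4% of borders against 10.9% of H3K36me2 gaps in each replicate, and H3K27ac 28.8 and 32.2% against 12.8 and 13.0%. ATAC-seq touched 27.9 and 29.7% of borders against 9.71 and 10.6% of H3K36me2 gaps. In each of these comparisons both border values lay above both values of the other class, and the gap between classes was larger than the spread between replicates. The two-sided exact permutation test gave p = 0.333 in all 10 comparisons, the gene ends described below included, which is the smallest p that 2 against 2 values allow (Benjamini-Hochberg adjusted 0.333), so this test cannot pass 0.05.

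**Figure D2:**
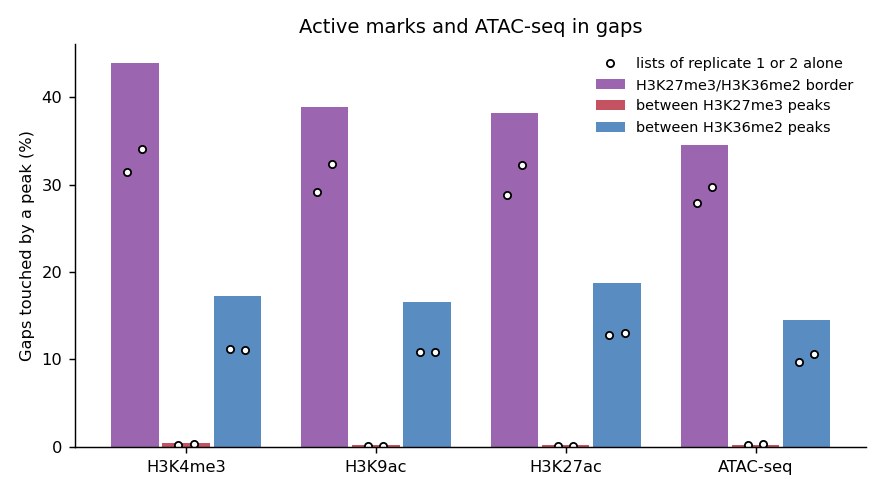
Percent of gaps touched by a peak (y axis) of H3K4me3, H3K9ac, H3K27ac or ATAC-seq (x axis) in borders, gaps between H3K27me3 peaks and gaps between H3K36me2 peaks. Bars use peaks touched by both replicates, and the 2 white points use the lists of replicate 1 or 2 alone for every set. For H3K4me3 the bars stand at 43.9, 0.410 and 17.2%, and border points lie above the other classes for every set.

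Measured as base pairs covered, the contrast with H3K36me2 gaps was far smaller. H3K4me3 covered 18.8% of border base pairs and 13.6% of those in H3K36me2 gaps, H3K9ac 15.04 and 12.4%, H3K27ac 14.2 and 13.9% and ATAC-seq 7.52 and 5.52%. For H3K27ac this leaves 0.299 percentage points. Against the H3K27me3 gaps, with 0.167, 0.0639, 0.0590 and 0.0646% covered, the contrast stayed wide. A touched border held a median of 1099 bp of H3K4me3 and 494 bp of ATAC-seq, and a touched H3K36me2 gap held 1059 and 548 bp.

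The difference in touched gaps was seen at every length. In the classes from 1 to 801, 1001 to 1801, 2001 to 2801, 3001 to 3801 and 4001 to 4801 bp, H3K4me3 touched 26.3, 41.0, 46.0, 52.3 and 47.1% of borders. In the same classes it touched 9.24, 19.7, 24.0, 25 and 24.6% of H3K36me2 gaps. ATAC-seq rose from 13.2% of borders in the shortest class to 43.1% at 3001 to 3801 bp, and from 6.74 to 22.3% of H3K36me2 gaps. Borders were higher than H3K36me2 gaps in every length class for these sets. Among the borders themselves, the shortest class held the fewest active peaks, with H3K4me3 in 10 of 38.

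**Figure D3:**
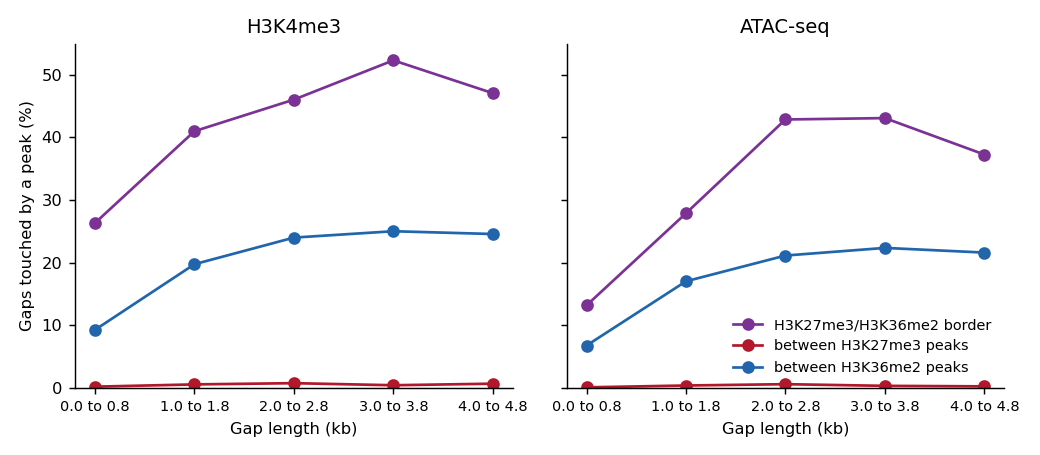
Percent of gaps touched by H3K4me3 (left) and ATAC-seq (right) on the y axis, by gap length class in kb on the x axis, for the 3 classes of gap. In the shortest class H3K4me3 touches 26.3% of borders and 9.24% of H3K36me2 gaps, and at 3001 to 3801 bp 52.3 and 25%.

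The active sets came together or not at all in most borders. All 4 touched 86 borders (30.9%, against 6.8% of all gaps) and none touched 154 (55.4%), so 124 (44.6%, against 10.6% of all gaps) held at least 1. The 3 histone marks without ATAC-seq touched 19, H3K4me3 with ATAC-seq 7, H3K4me3 alone 6 and ATAC-seq alone 2. No border held H3K27ac without H3K4me3. Of the H3K36me2 gaps without H3K4me3, 105 (1.06% of all H3K36me2 gaps) held H3K27ac alone. A further 40 held it with ATAC-seq, 25 with H3K9ac and ATAC-seq and 23 with H3K9ac. For scale, H3K27ac touched 106 borders and 1845 H3K36me2 gaps in all, and a difference between the classes was not tested. The 154 borders without an active set had a median gap of 2401 bp and the 124 with one had 2801 bp. Of those 154, 76 lay between genes and 50 inside a gene.

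Within the borders active peaks sat toward H3K36me2. The H3K4me3 peaks lay nearer the H3K36me2 edge in 96 of 122 borders (78.7%), and those of H3K9ac did so in 77.8%, of H3K27ac in 78.3% and of ATAC-seq in 77.1%. H3K4me3 reached into the flanking H3K36me2 peak in 75 borders (61.5%) and into the H3K27me3 peak in 24 (19.7%). ATAC-seq peaks, which are narrower, lay wholly within the gap in 53 of 96 borders, reached into H3K36me2 in 35 and into H3K27me3 in 10. The H3K4me3 peaks at borders had a median width of 1648 bp, against 1896 bp for those in H3K36me2 gaps and 1495 bp for all.

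Aligned at the edges, the profile was lopsided. Around the H3K36me2 edge the share of borders under an H3K4me3 peak was highest, 32.4%, in the 200 bp bin centred 300 bp outside H3K36me2, and it was still 19.4% at 1100 bp inside that domain. Around the H3K27me3 edge the highest share was 26.3%, at 1900 bp outside H3K27me3, and it was 5.40% at 1100 bp and 0.719% at 3100 bp inside. Around the H3K27me3 edge H3K9ac was highest at 1900 bp outside it (22.7%), and H3K27ac reached 22.7% in the bins at 1700 and 1900 bp. Around the H3K36me2 edge both acetyl marks were highest at 700 bp outside, with 26.3% for H3K9ac and 25.2% for H3K27ac.

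**Figure D4:**
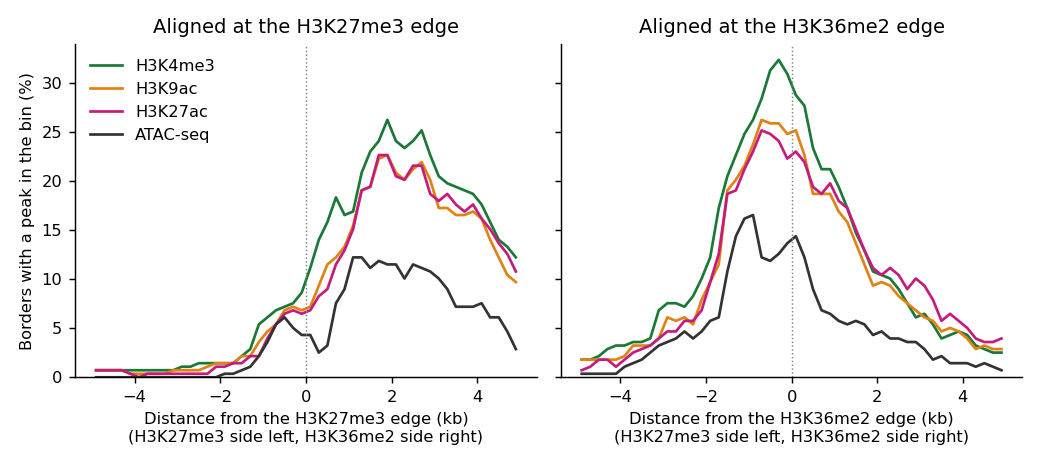
Percent of the 278 borders with a peak in each 200 bp bin (y axis) by distance in kb (x axis) from the H3K27me3 edge (left) and the H3K36me2 edge (right), with the H3K27me3 domain always on the left. The H3K4me3 line is highest at 32.4%, 300 bp before the H3K36me2 edge, and falls to 0.719% at 3100 bp inside H3K27me3.

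Gene ends were common at borders. An outer end of a RefSeq gene, 5′ or 3′, lay in 102 borders (36.7%), where 8.3% of all gaps held one. It lay in 399 H3K27me3 gaps (4.09%) and 1152 H3K36me2 gaps (11.7%). Alternative starts inside a gene were not counted here, but they are among the listed starts below. Rebuilt from single replicates the border share was 33.4 and 35%, that of H3K36me2 gaps 9.32 and 9.68% and that of H3K27me3 gaps 4.48 and 4.34%, so the border values again lay above the others. Within 1000 bp of the gap a gene end was found at 56.1% of borders, within 3000 bp at 72.3% and within 5000 bp at 83.8%. Within 5000 bp the shares were 22.2% of H3K27me3 gaps and 32.7% of H3K36me2 gaps.

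By place, 67 borders (24.1%, against 4.56% of all gaps) held a listed gene start, 41 another gene end only, 70 (25.2%) lay inside a gene and 100 (35.97%) between genes. The 41 include outer 5′ ends of genes whose listed start lay outside the gap, such as Paxip1, so they are not free of gene starts. H3K4me3 touched 18 of the 41 (43.9%) and 39.8% of such H3K36me2 gaps. H3K36me2 gaps were mostly inside genes (7139, 72.3%), and 725 (7.35%) held a start. With a start in the gap, H3K4me3 touched 62 of 67 borders (92.5%) and 656 of 725 H3K36me2 gaps (90.5%) but 4 of 115 H3K27me3 gaps (3.48%). Borders thus held more gene starts, whose part in the higher active share was not tested, and among gaps that held a start borders and H3K36me2 gaps had near-equal shares. Inside genes H3K4me3 touched 19 of 70 borders (27.1%) and 8.31% of H3K36me2 gaps, including gaps close to a start, such as that of Traf6. Between genes it touched 23 of 100 borders and 16.4% of H3K36me2 gaps, H3K9ac 12 against 15.6%, H3K27ac 11 against 19.8% and ATAC-seq 13 against 14.1%, so between genes the border shares were not above those of H3K36me2 gaps except for H3K4me3.

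Genes that start in a border nearly all read into H3K36me2. A RefSeq start with known strand lay in a border for 64 protein-coding genes, and 61 of them (95.3%) were read away from H3K27me3 and toward H3K36me2. With lists of replicate 1 alone it was 84 of 95 (88.4%), and with replicate 2 alone 89 of 96 (92.7%). No test was made, since genes are not replicates, and starts can be alternative ones: 11 of the 64 lay more than 1000 bp inside the outer end of their gene, and of the other 53, 50 were read toward H3K36me2. Counted by border and over all gene types, 57 borders held starts read toward H3K36me2, 5 toward H3K27me3 and 5 both ways. All 61 starts read toward H3K36me2 had H3K4me3, H3K9ac and H3K27ac within 500 bp, and 56 had ATAC-seq. Counted by promoter window, 93.4% of border windows lay under an H3K4me3 peak, against 90.9% in H3K36me2 gaps and 32.8% of all windows. Marked starts were thus about as common in H3K36me2 gaps. The bodies of all 61 reached into the flanking H3K36me2 peak, which largely follows from their direction, as that edge lay at most 2833 bp away. The flanking H3K36me2 peak covered a median of 73.9% of the body. The start lay a median of 870 bp from H3K36me2 and 1784 bp from H3K27me3, and 48 of 61 were nearer H3K36me2.

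The exceptions were 3 genes read toward H3K27me3. They were Entpd1, an ectonucleotidase, Wasf1, a regulator of actin branching, and Adgrf1, an adhesion receptor. The first shared its border with Tctn3 and the second with Cdc40, whose starts were read toward H3K36me2, so the active peaks in these gaps cannot be assigned to one gene. H3K4me3 covered 979 bp of the gap of Entpd1 and Tctn3 in replicate 1 and 1086 bp in replicate 2, and 1521 and 1499 bp of the gap of Wasf1 and Cdc40. The Adgrf1 border had none in either replicate.

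Outside the gap the directions were counted on each side. Within 5000 bp on the H3K36me2 side, 46 of 50 protein-coding starts (92%) were read into H3K36me2, and 43 of the 46 had H3K4me3 within 500 bp. For scale, 32.8% of all autosomal promoter windows lay under an H3K4me3 peak. On the H3K27me3 side, 15 starts were read toward the gap and 14 away from it. Of those 15, 8 had H3K4me3 within 500 bp, and of the 14 read away 3 did. H3K27me3 lay within 500 bp of all of them, which largely follows from counting starts on that side. The 8 included Traf6, a ubiquitin ligase of innate immune signalling, E2f7, a repressor of the cell cycle, and Pcgf5, a Polycomb ring finger protein. Traf6, E2f7 and Pcgf5 were picked after their values were seen. All 8 listed starts lay less than 1200 bp from the gap, those of Traf6 and E2f7 at 380 and 361 bp. The median difference between replicates in the H3K27me3 edge was 1200 bp, so the side of these starts is not secure.

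**Figure D5:**
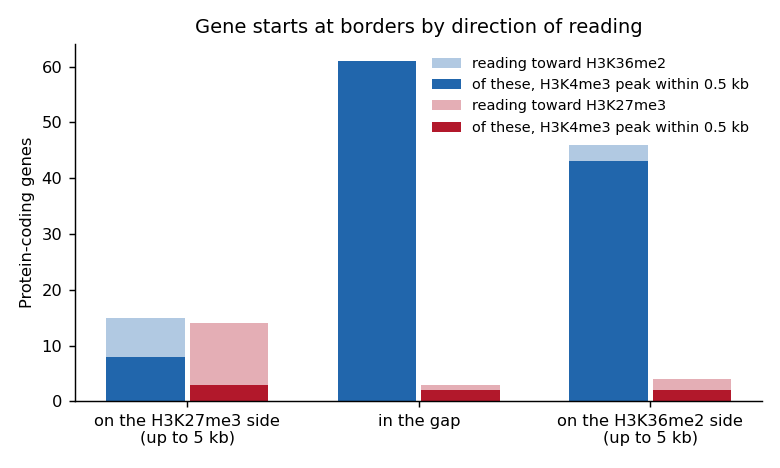
Number of protein-coding genes (y axis) whose start lies up to 5 kb on the H3K27me3 side, in the gap, or up to 5 kb on the H3K36me2 side (x axis), by direction of reading. Pale bars are all starts and solid parts those with an H3K4me3 peak within 0.5 kb. In the gap 61 starts are read toward H3K36me2 and 3 toward H3K27me3.

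The 3′ end of a gene of known strand lay in a border in 19 cases. In 11 the gene body was on the H3K27me3 side, 5 of them with an active set in the gap. Each of those 5 gaps also held the start of another gene (Sec61a2, Ppih, Leng9, Gm24576 or Mtrf1l). Their active peaks thus cannot be assigned to the 3′ end. In 8 the gene body was on the H3K36me2 side, with an active set in 0 of them. 38 borders lay inside a protein-coding gene of known strand, with H3K27me3 on the side of the gene's start in 28 and H3K36me2 there in 10. An active set touched 10 of the 28 and 2 of the 10. Many touched gaps lay close to the outer start of the gene. In the 10 it lay 190 (Zfp277), 361 (E2f7), 374 (Mphosph6), 380 (Traf6), 520 (Efhd2), 733 (Mrpl23), 2896 (Sergef), 5678 (Pdgfra), 62071 (Pcgf5) and 182650 bp (Myo10) away. In the 2 it lay 127 (Morn5) and 101848 bp (Trio) away. Sergef and Pcgf5 also had an alternative start nearer the gap. Promoter peaks were not separated from peaks within gene bodies.

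15 genes illustrate the borders with all 4 active sets, chosen as those with the longest flanking H3K27me3 peak. All 15 were read toward H3K36me2. H3K4me3 covered 600 to 2056 bp of their gaps per replicate, and the replicates differed by a median of 37 bp. ATAC-seq covered 261 to 1245 bp, with a median difference of 123 bp. The broad edges varied more, as 8 of the 15 borders were also found with replicate 1 alone, 10 with replicate 2 alone, 5 with each and 2 with neither (Cmtr2 and Mrps9).

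Phc1, a subunit of Polycomb repressive complex PRC1, started in a border of 2401 bp at chr6:122338600-122341000. An H3K27me3 peak of 89.6 kb lay upstream of it, the widest at any border, and an H3K36me2 peak of 28.2 kb covered 92.8% of the gene. H3K4me3 covered 2056 bp in replicate 1 and 2014 bp in replicate 2, H3K9ac 1570 and 1673 bp, H3K27ac 1561 and 1553 bp, and ATAC-seq 954 and 1204 bp. The gap measured 3601 bp in replicate 1 and 3401 bp in replicate 2. Its promoter, printed above, has few CG for a border.

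Pex26, which anchors the peroxisomal import machinery, started in a border of 2801 bp at chr6:121181600-121184400, between 42.8 kb of H3K27me3 and 57.6 kb of H3K36me2. H3K4me3 covered 1042 and 1053 bp, and ATAC-seq 655 and 812 bp. The gap was 2801 bp in replicate 1 but 5801 bp, over the limit, in replicate 2. Sfxn1, a mitochondrial serine transporter, started in a border of 3601 bp at chr13:54070600-54074200, between 34.8 and 37.6 kb of H3K27me3 and H3K36me2. Here H3K4me3 covered 1864 and 1835 bp, and the gap of 3601 and 4001 bp was close in both replicates.

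Lancl1, a glutathione-binding protein, started 35 bp from the H3K36me2 edge and 1567 bp from H3K27me3. Its gap at chr1:67038800-67040400 held 679 and 686 bp of H3K4me3. Trim68, a ubiquitin ligase, started in a gap of 3401 bp at chr7:102686200-102689600 with 1145 and 1236 bp of H3K4me3, and was a border in both replicates (4601 and 3401 bp). Twf1, which binds actin, started 225 bp from H3K36me2 in a gap of 1201 bp at chr15:94589600-94590800, with 846 and 880 bp of H3K4me3.

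Further genes with all 4 sets were Cmtr2, an mRNA cap methyltransferase, Mto1, a tRNA-modifying enzyme of mitochondria, and Mrps9, a protein of the mitochondrial ribosome. The Mto1 start, 4731 bp inside the gene, was an alternative one, and its gap of 1601 bp at chr9:78447400-78449000 held 1184 and 1168 bp of H3K4me3. The Cmtr2 gap measured 10601 bp in replicate 1 and 5201 bp in replicate 2, and that of Mrps9 5201 and 9401 bp, so both passed the limit only in the merged peaks. H3K4me3 covered 1594 and 1655 bp of the Cmtr2 gap and 1483 and 1596 bp of the Mrps9 gap.

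Csf1, the growth factor of macrophages, and Bcl10, an adaptor of NF-kB signalling from antigen receptors, closed the list with the shortest H3K27me3 flanks, 17.0 and 15.8 kb. Csf1 started in a border of 2801 bp at chr3:107759600-107762400 with 1123 and 1194 bp of H3K4me3, and its gap was 2801 bp in replicate 1 and 16001 bp in replicate 2. Bcl10 started in a border of 3601 bp at chr3:145921800-145925400 with 1763 and 1748 bp of H3K4me3, and its gap was 5801 and 4601 bp. H3K36me2 covered 95.5% of Csf1 and 88.7% of Bcl10.

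The other named genes were Sec13, a coat protein of vesicles and nuclear pores, Ubac1, a subunit of a ubiquitin ligase, Lap3, an aminopeptidase, and Cep41, a centrosomal protein. H3K36me2 covered 89.8% of Sec13, 99.3% of Ubac1 and 95.7% of Lap3. Cep41 differed, since its start lay 16768 bp inside the gene, with H3K27me3 over 27.9% and H3K36me2 over 36.5% of the body. Its gap of 1001 bp held 720 and 671 bp of H3K4me3 and 344 and 305 bp of ATAC-seq.

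The 10 borders with the widest flanks, by the shorter of the flanking peaks, were not all active. They included those of Pex26, Sfxn1, Phc1 and Mto1. A border inside Myo10, an unconventional myosin, at chr15:25805200-25806800, joined 33.8 kb of H3K27me3 to 171 kb of H3K36me2, and H3K4me3 covered 1522 bp of its 1601 bp. A border at chr15:102351000-102355000, within 5000 bp of ends of Aaas, a nuclear pore gene, and Sp7, a bone transcription factor, held 498 bp of H3K4me3. No active set of both replicates touched the borders inside Arhgef7, an exchange factor of small GTPases (chr8:11754000-11756400), inside Adamts20, a secreted protease (chr15:94269400-94272000), near Cpt2, of fatty acid oxidation (chr4:107925200-107927600), or near Mcoln2, a cation channel (chr3:146200000-146204200). An ATAC-seq peak of replicate 1 alone touched the Arhgef7 border.

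Of 88 genes in 7 lists (T lineage, B lineage, myeloid, helper subset factors, developmental factors, H3K27 and H3K36 enzymes, cytokines and their receptors), 1 had an end within 5000 bp of a border, where 0.733% of all autosomal genes and 1.3% of protein-coding ones did. It was Lef1, a transcription factor of early T cells. The outer end of Lef1 lay 2303 bp from a border at chr3:131112600-131115400, on the H3K27me3 side, and an alternative start lay in the gap. H3K4me3 covered 929 bp of the gap in replicate 1 and 912 bp in replicate 2, ATAC-seq 6 and 414 bp, and H3K9ac and H3K27ac 0 bp in each. Peaks of both acetyl marks did lie within 500 bp of the alternative start, but outside the gap. The border was found with replicate 1 alone (3601 bp) and not with replicate 2 alone (5601 bp).

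As a check of the cell type, an H3K4me3 peak lay within 500 bp of a start of 16 of 17 T lineage genes with a known start, Satb1 being without, and of 0 of 4 B lineage and 0 of 4 myeloid genes. The lists held 24, 8 and 6 genes, so those without a known start were not checked. Over all autosomal promoter windows 32.8% lay under an H3K4me3 peak, so 0 of 4 carries little weight. Among merged peaks, the share touched by both replicates was 53.7% for H3K27me3, 56.6% for H3K36me2, 92.4% for H3K4me3 and 72.7% for ATAC-seq.

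Borders were unevenly spread, with 26 on chromosome 15, 22 on chromosome 5, 21 on chromosome 7 and 20 on chromosome 11, and 1 each on chromosomes 14 and 16. Per 1000 peaks of the 2 broad marks there were 6.06 borders over all autosomes, 11.2 on chromosome 15, 10.4 on chromosome 7, 8.97 on chromosome 17, 8.86 on chromosome 5 and 5.63 on chromosome 11. The lowest rates were 0.760 on chromosome 14 and 0.749 on chromosome 16. H3K4me3 touched a larger share of borders than of H3K36me2 gaps on 17 of 19 autosomes, all but 12 and 14. This held on 17 autosomes with H3K9ac, on 16 with H3K27ac and on 17 with ATAC-seq. Chromosomes 14 and 16, with a single border each, were among the exceptions for the acetyl marks and ATAC-seq.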

How the data were processed

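ChIP-seq and ATAC-seq peak lists of EL4 cells were used, 2 per assay, for 12 of 15 samples. Input DNA and RNA-seq were not analysed here. Per the methods, the authors aligned reads with STAR 2.5 (named with Picard and MACS2, and with GRCm38, in the submitters' processing notes), kept unique alignments, treated duplicates with Picard and called peaks per replicate, with macs2 for narrow and ATAC-seq peaks and Epic for broad ones, against the input for ChIP-seq. The deposited lists give positions in bp, with no score, count or depth, so no normalization applies.

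Lists of both replicates were merged, and peaks touched by each replicate kept. A gap was called touched at 1 bp of overlap. Broad intervals end 1 bp before the next 200 bp bin, so gaps come in steps of 200 bp. The 10 comparisons of borders with same-mark gaps used exact two-sided permutation tests over values rebuilt from single replicates. Gene ends came from RefSeq (GRCm38.p6, 47042 autosomal genes), and starts with strand from promoter windows of 25748 of them, several per gene where RefSeq lists several.

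The members and lists were chosen with earlier results of these data known. Named were the 10 borders with the longest shorter flank, 15 protein-coding genes starting in borders with all 4 active sets by H3K27me3 flank, list genes within 5000 bp, and 5 promoters not on chromosome 18. Alternatives changed the combination of replicates, gap limits, joining, peak width, overlap, measure, gene window and gene type, and left out each replicate. Computation used pandas 2.3.3 and numpy 2.4.6 in Python 3.11.15, tests scipy 1.17.1 and overlap checks bedtools 2.31.1. The code was tested on simulated peaks with planted borders, and all 12 touch counts equalled those of bedtools.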

Additional observations from a re-analysis of the deposited data

How the results depend on the processing

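All differences in shares kept their direction in 140 recalculations under other settings and in 56 that left out a replicate, and none reversed. These settings did not include the split by place. Between genes, border shares of H3K9ac, H3K27ac and ATAC-seq were below those of H3K36me2 gaps, as given above. Peaks touched by either replicate gave 885 borders and intersected intervals 130 (median gap 3401 bp). A limit of 2000 bp gave 99 borders (1201 bp) and one of 10000 bp gave 634 (5601 bp). Gaps of 1000 bp or more had a median of 2801 bp, and gaps without an interval of a single replicate 2401 bp. The share of starts read toward H3K36me2 was 84.1% with intersected intervals (37 of 44), 81.2% up to 2000 bp (13 of 16) and 92% up to 10000 bp (184 of 200). The causes of these shifts were not tested, beyond the limits themselves.

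Without 1 replicate of a set, there were 334 to 368 borders with a median gap of 2601 to 2801 bp, and 91.2 to 94.3% of starts were read toward H3K36me2. The excess of borders over H3K27me3 gaps was then 34.9 to 43.4 percentage points for H3K4me3, 32.8 to 39.1 for H3K9ac, 32.5 to 38.3 for H3K27ac, 28.4 to 35.7 for ATAC-seq and 30.1 to 33.4 for gene ends. Over H3K36me2 gaps it was 20.8 to 26.8, 17.4 to 24.0, 15.3 to 21.6, 18.6 to 21.2 and 24.8 to 27.6 points. Against H3K36me2 gaps, peaks of either replicate lowered the excess for H3K4me3 to 15.6 points and intersected intervals raised it to 37.7. Bins extended by 1 bp, the pairing below and shares weighted to border lengths were chosen after seeing the data, and weighting left 22.5 points for H3K4me3. The classes of gap in a replicate share its libraries, so a paired comparison with the replicate block was also added. The mean difference within replicates was 32.5, 30.6, 30.4, 28.6 and 29.8 points against H3K27me3 gaps, in the same order, and 21.6, 19.8, 17.6, 18.7 and 24.7 points against H3K36me2 gaps, above 0 in both replicates. The exact paired permutation p was 0.5 each time, the smallest that 2 pairs allow. The lists carry no reads, so depth is unknown and its part in the edge differences was not tested.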
